A study of Mus musculus with 3 samples.

Results

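The 37 genes described here are antiviral genes switched on by type I interferon, the interferon-stimulated genes, as measured in whole lung of mice challenged with mycobacterial microparticles. The list names the genes and uses no measured value as a criterion, although earlier results of these data were known when it was made, and all 37 were found among the 53342 genes of the count table. The lungs came from 3 male C57Bl/6 mice, called mouse 4, 5 and 6 by the last digit of their labels. Each mouse received Mycobacterium abscessus microparticles into the trachea, in 50 µL and at a dose equal to 1000000 bacteria, as a challenge meant to form granulomas. MIA-602, which blocks the receptor of growth hormone-releasing hormone, was then injected under the skin at 5 µg each day, and the lungs were taken after 3 weeks. All 3 mice carry the challenge and the drug and form 1 group. Age is not given in the sources used here, and lungs without the challenge or without the drug were not analysed here. The values therefore describe the level of the genes in these lungs and their spread between 3 mice, and no level can be called induced or repressed.

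Type I interferons (the alpha interferons, beta and several minor forms) bind the receptor made of IFNAR1 and IFNAR2, and the kinases JAK1 and TYK2 then act on STAT2, among other proteins. STAT2 works with IRF9 in a complex that binds the interferon-stimulated response element (ISRE) in the promoters of antiviral genes. Interferon-gamma, the type II interferon of T cells and NK cells, uses its own receptor and acts through the gamma-activated site (GAS), and some antiviral genes respond to both. In the lung the antiviral genes are best known from respiratory virus infection, and a type I interferon response is also known from mycobacterial infection.

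The libraries held between 31579465 and 43845715 counts, and levels are given as CPM, the counts of a gene per 1000000 counts of its library after a correction for composition, for mice 4, 5 and 6 in that order or as mean ± SD (n = 3). Levels of different genes were ranked only as CPM per kilobase of exon, and other comparisons between genes name their unit. The lung label was matched by its markers, with the 3 alveolar type 2 markers Sftpc, Sftpb and Sftpa1 summing to 20317, 27566 and 24868 CPM. The libraries differed in marker content. Skeletal muscle markers summed to 4185, 1524 and 1311 CPM and squamous epithelium markers to 299, 112 and 95.5, highest in mouse 4, while club cell markers summed to 8953, 24443 and 21641 CPM, lowest in mouse 4. In mouse 5, all 3 erythroid, all 3 endothelial, all 3 alveolar type 1 and all 3 alveolar type 2 markers were at their highest. All 4 monocyte and macrophage, all 4 T cell and all 3 B cell markers were at their lowest there. No marker of these lists was at 0. In whole lung, fewer cells of a type and less RNA per cell cannot be told apart.

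Interferon-stimulated genes were abundant in all 3 lungs. Every member had at least 253 counts in every library, and 36 of 37 stood at 10 CPM or more in every mouse, against 59.6% of the 17636 genes kept by the expression filter. Mx2 was the exception. The median member stood at 70.8, 57.2 and 78.2 CPM in mice 4, 5 and 6, with a mean of 68.7 ± 10.6, where the median of all genes kept was 19.2 CPM. Per kilobase of exon the median member reached 18.7 CPM per kb, against 4.48 for all genes kept, and the median rank of the members was the 83.2 percentile. Together the 37 genes took 0.408%, 0.349% and 0.418% of all counts.

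The order of the levels spanned from Ifitm3 at 607 ± 32.5 CPM per kb to Mx2 at 2.16 ± 0.636. Ifitm3, Bst2, Lgals3bp and Ifi27, in this order, were each separated from the next gene in all 3 mice, with no overlap of their ranges. Of the 36 pairs of neighbours in the whole order, 28 had overlapping ranges and 8 did not. In 8 of the 28 overlapping pairs the order was nevertheless the same in all 3 mice, as for Ifit3 over Isg15, and in the other 20 it changed between mice.

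**Figure D1:**
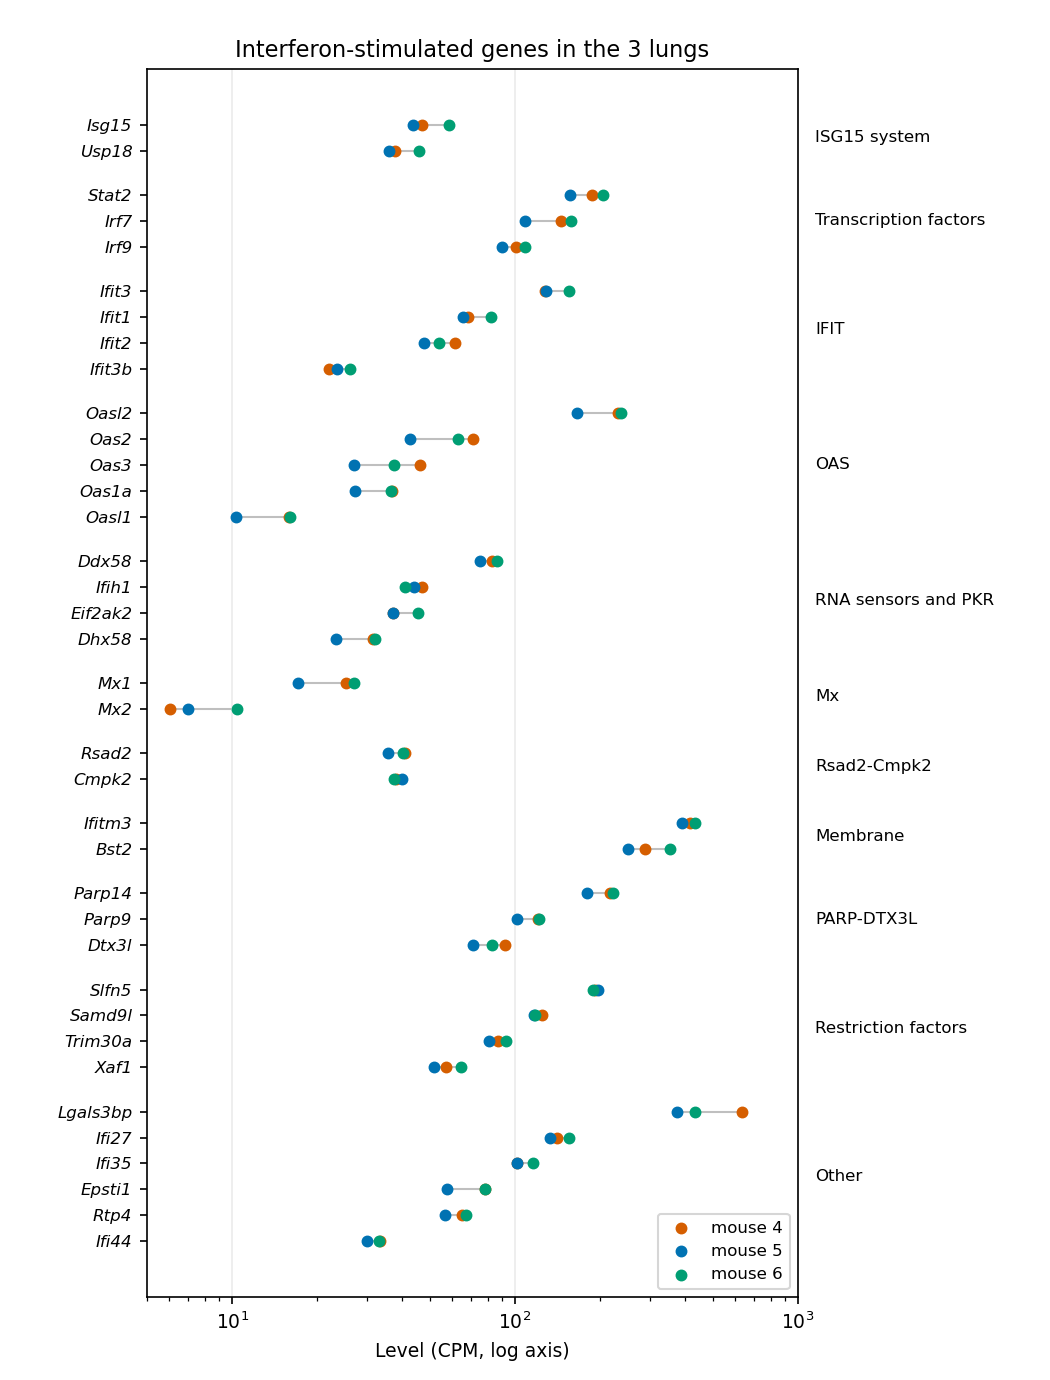
CPM of each of the 37 members on a log axis, grouped by role, with 1 point per mouse and a grey line from the lowest to the highest mouse. Mx2 is the only member below 10 CPM in any mouse, and the blue points of mouse 5 are the lowest for 31 of the 37 genes, against 36.8% of all genes kept.

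Near-identical copies limit how far a few of these levels belong to 1 gene. Words of 50 bases from the transcripts of Oas1a were shared with other genes in 57.6% of cases, all of them with Oas1g. The share was 51.2% for Ifit3 and 45.0% for Ifit3b, almost all with each other, and 11.6% for Rtp4. Ifitm3 lay just over 10%, and the other 32 members shared 10% or less. The use of strand in counting is not given in the sources used here. Ifi35 shares 16.8% of its exon bases with Gm11626 on the opposite strand, and Rtp4 13.9% with Gm45338 on its own strand.

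The promoters of the members were read from RefSeq windows that span 250 bases before to 50 after each start (GRCm38.p6, the build called mm10). Windows were found for 28 of the 37 members, and Usp18, Mx1, Mx2, Rtp4, Dhx58, Ifi27, Oas2, Parp9 and Parp14 had none. The ISRE core was searched as GAAA, 2 bases of any kind and GAAA, and the GAS as TTC, 3 bases of any kind and GAA, on both strands and with matches allowed to overlap. The ISRE core was present in 15 of the 28 members (53.6%), against 1079 of all 27025 genes with a window (3.99%). The longer form, in which a C follows the core, was present in 12 members (42.9%), against 0.944% of genes, and the GAS in 6 members (21.4%), against 9.55%. A match is a run of letters and was not shown here to be bound.

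Stretches with ISRE cores from 9 members are printed because they show how the sites are arranged in the best known members, with single, spaced and overlapping cores. Each is written 5′ to 3′ on the strand of its gene, and capitals mark the bases of ISRE core matches on either strand. All lie before the RefSeq start, which was within 18 bases of the annotated gene start in GENCODE for these genes, except Stat2 (61 bases).
Isg15, chr4:156200860-156200911, minus strand: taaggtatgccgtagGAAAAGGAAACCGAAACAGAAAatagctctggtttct
Bst2, chr8:71537572-71537617, minus strand: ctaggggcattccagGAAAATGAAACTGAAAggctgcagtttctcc
Oas1a, chr5:120907526-120907560, minus strand: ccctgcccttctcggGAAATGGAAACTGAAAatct
Ifit1, chr19:34640770-34640828, plus strand: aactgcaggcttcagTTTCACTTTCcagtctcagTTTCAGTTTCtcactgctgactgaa
Ifit3, chr19:34583358-34583431, plus strand: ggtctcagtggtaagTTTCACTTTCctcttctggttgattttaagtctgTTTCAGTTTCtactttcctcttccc
Ifit3b, chr19:34607754-34607827, plus strand: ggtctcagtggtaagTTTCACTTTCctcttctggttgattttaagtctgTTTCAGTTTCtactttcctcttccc
Oas3, chr5:120777710-120777749, minus strand: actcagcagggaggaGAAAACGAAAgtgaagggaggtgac
Rsad2, chr12:26456548-26456587, minus strand: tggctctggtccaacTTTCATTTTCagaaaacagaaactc
Stat2, chr10:128270261-128270300, plus strand: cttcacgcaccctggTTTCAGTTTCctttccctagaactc

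Isg15 carried 3 overlapping cores within 22 bases, and Bst2 and Oas1a 2 overlapping cores within 16 bases. Ifit1, Ifit3 and Ifit3b carried 2 separate cores each. The stretches of Ifit3 and Ifit3b were identical at all 74 bases, with the same 34 bases from the start of 1 core to the start of the next, although they begin at positions -171 and -203 relative to their starts. Aligned on these cores without gaps, the windows as a whole were identical at 201 of 268 bases. In all, 7 members held at least 2 cores in 1 window, and Trim30a held 1 core in each of 2 windows that do not overlap. Bst2, Eif2ak2, Ifitm3 and Oas1a held both an ISRE core and a GAS, and in Bst2 and Ifitm3 the GAS overlapped an ISRE core.

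**Figure D2:**
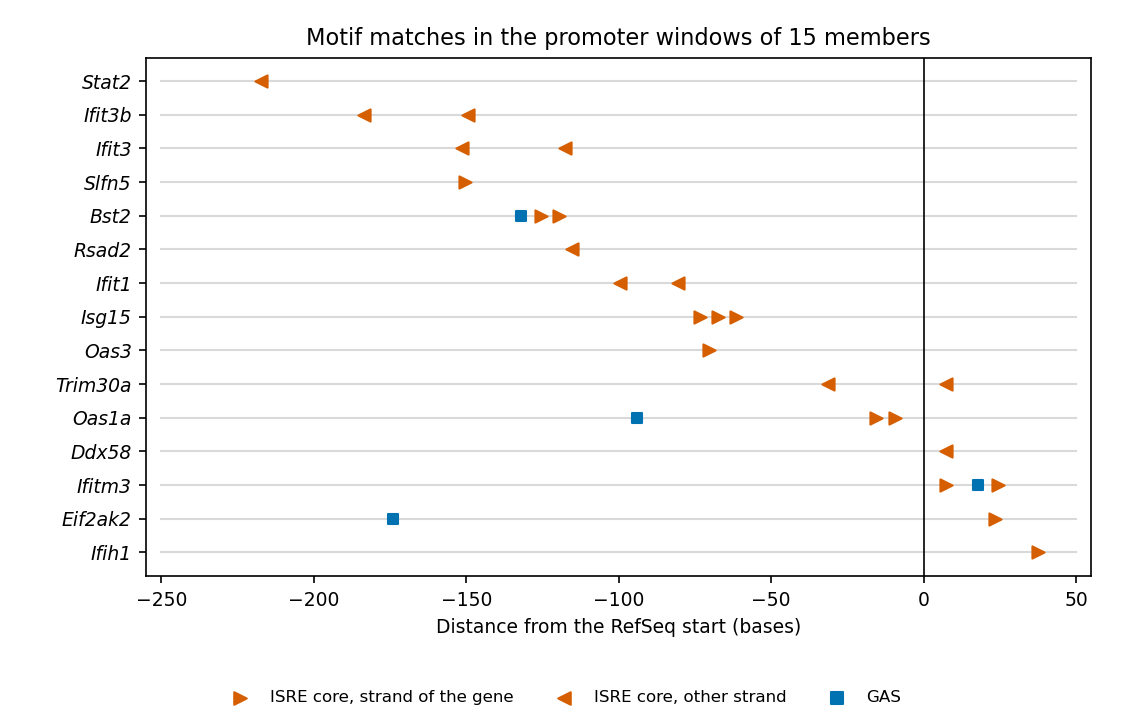
Positions of motif matches relative to the RefSeq start in the windows of the 15 members with an ISRE core, where triangles are ISRE cores (pointing right on the strand of the gene, left on the other) and squares are GAS matches. Most cores lie before the start, and those of Ddx58, Ifitm3, Eif2ak2 and Ifih1 lie after it. The pair of marks for Trim30a, at bases -36 to -27 and 3 to 12, comes from separate windows at 2 annotated starts.

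The 13 members with a window and no ISRE core included Irf7, Irf9, Oasl1, Oasl2, Ifit2 and Lgals3bp. For these, the search says only that the letters were not in these 300 bases. Lgals3bp, without the core, stood at 169 ± 47.5 CPM per kb, above Isg15 with 3 cores at 65.5 ± 10.3.

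Transcripts of the type I interferons themselves were almost absent from the counts. Of 17 type I interferon genes, 14 had no count in any library, and the remaining 3 had 5 counts in all. These were 1 for Ifnb1 in mouse 5, 1 for Ifnab in mouse 4 and 3 for Ifnk, a keratinocyte interferon, in mouse 5. Summed over the genes and libraries, they came to 0.0451 CPM with a 95% exact Poisson interval of 0.0146 to 0.105, which covers counting error only. For a gene with no count, 3 counts would equal 0.0696, 0.0830 and 0.0946 CPM in the 3 libraries, and lower levels could be missed. Sequence shared between these interferon genes was not checked, and how reads that match several genes were counted is not known here. Ifng, the gene for interferon-gamma, had 1044 counts over the same libraries, 208.8 times the type I sum (95% exact interval for counting error 89.2 to 644). This is a ratio of counts and is not corrected for exon length. Of the type III interferons, Ifnl2 had 1 count and Ifnl3 none. Of the 4 markers of plasmacytoid dendritic cells, known as strong producers of type I interferon, Siglech stood at 4.02, 3.35 and 6.84 CPM, Pacsin1 at 7.54, 4.73 and 9.43, Klk1 at 0.859, 0.47 and 2.46 and Cox6a2, which muscle also expresses, at 57, 31.5 and 32.

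Receptors and signalling parts were present throughout. All 6 receptor chains for type I, II and III interferon were detected at 1 CPM or more in every mouse, led per kilobase by Ifngr1 (69.7 ± 0.504 CPM per kb), Ifngr2 (38.5 ± 2.14), Il10rb (31.9 ± 2.64) and Ifnar2 (26.4 ± 2.76). The type I receptor chain Ifnar1 stood at 103, 88.3 and 94.2 CPM in mice 4, 5 and 6, and its partner Ifnar2 at 97.7, 79.5 and 86.8. Their ranges were 1.16-fold and 1.23-fold, against a median of 1.24-fold for all genes kept, and both were lowest in mouse 5. The receptor-bound kinase genes Jak1, Jak2 and Tyk2 were detected in every mouse, at 192 ± 12.1, 97.8 ± 15.9 and 86.5 ± 11.5 CPM, and each was lowest in mouse 5.

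All 12 listed genes of upstream sensing and interferon induction were detected. Per kilobase the most abundant were Zbp1, a sensor of Z-form nucleic acids, Myd88, an adaptor of Toll-like receptors, Tmem173, which encodes STING, and Irf3, the constitutive factor that starts interferon transcription, at 39.97 ± 9.83, 33 ± 2.95, 32.5 ± 5.59 and 29.3 ± 0.947 CPM per kb. Zbp1 stood at 159, 101 and 163 CPM in the 3 lungs, Myd88 at 87.7, 76.4 and 90.9, Tmem173 at 97.6, 71.5 and 98.4 and Irf3 at 98.3, 99.8 and 105. The first 3 were lowest in mouse 5, whereas Irf3 was nearly level across the lungs. Of 5 genes that brake the response or clear nucleic acids, 4 were detected, and Samhd1, a dNTP hydrolase, led at 89.3 ± 13.4 CPM per kb (870.02, 677 and 905 CPM in the 3 lungs), followed by Socs3 (42.3 ± 4.07 CPM per kb), Socs1 (26.8 ± 6.95) and Adar (12.3 ± 1.08). Trex1 had no count in any library. All of its exon bases overlap Atrip on the same strand, and how reads of overlapping genes were counted is not known here.

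The transcription factors among the members were well expressed. Stat2, a part of the factor that binds the ISRE (ENSMUSG00000040033, chromosome 10, 128270559 to 128292849), had levels of 188, 156 and 204 CPM. Irf9, the DNA-binding part of that factor, stood at 101, 89.8 and 108 CPM. Irf7, the inducible factor that amplifies alpha interferon transcription (ENSMUSG00000025498, chromosome 7, 141262706 to 141266481), stood at 145, 108 and 157 CPM. All 3 genes were lowest in mouse 5 and highest in mouse 6, with 1.31-fold, 1.2-fold and 1.45-fold between these mice. Per kilobase of exon, Irf7 was 1.35, 0.99 and 1.37 times the level of Irf3 in mice 4, 5 and 6. Per kilobase of the longest transcript, the mean was 42.3 CPM per kb for Irf7 and 49.7 for Irf3. Which of the 2 factors stood higher therefore depends on the length used.

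In the ISG15 system, Isg15 encodes a ubiquitin-like protein that is attached to other proteins and also released from cells (ENSMUSG00000035692, chromosome 4, 156199424 to 156200818). It stood at 46.9, 43.4 and 58.3 CPM. Usp18, the protease that removes ISG15 and blocks signalling at IFNAR2, stood at 37.5, 35.9 and 45.8 CPM. Both were highest in mouse 6, and mice 4 and 5 lay close together. Per kilobase, Isg15 stood at 4.61, 4.46 and 4.71 times the level of Usp18 in the 3 lungs, a ratio nearly fixed while both levels moved.

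The IFIT proteins bind viral RNA that lacks the host cap marks. Their genes lie in 1 cluster on chromosome 19, from 34550694 to 34650009, in the order Ifit2, Ifit3, Ifit3b and Ifit1. Ifit3 led at 127, 128 and 155 CPM, followed per kilobase by Ifit1 (68.1, 65.5 and 82.2 CPM), Ifit2 (61.4, 47.8 and 53.9) and Ifit3b (22, 23.5 and 26.1). Ifit1, Ifit3 and Ifit3b were highest in mouse 6, and Ifit2 was highest in mouse 4. Within each lung Ifit1 stood at 0.352, 0.336 and 0.349 times the level of Ifit3 per kilobase, whereas for Ifit2 this ratio was 0.214, 0.166 and 0.155, highest in mouse 4. Ifit3 stood at 6.62, 6.24 and 6.8 times the level of Ifit3b per kilobase, and these are the genes whose stretches around the cores are identical. With 51.2% of the 50-base words of Ifit3 shared, the division of reads between these copies is uncertain.

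The OAS enzymes make the short 2′-5′ oligoadenylates that activate RNase L, and Oasl1 and Oasl2 encode OAS-like proteins with a ubiquitin-like tail. All 5 members from this family were lowest in mouse 5. Oas2 (ENSMUSG00000032690, chromosome 5, 120730333 to 120749853) stood at 70.8, 42.4 and 62.6 CPM, and its neighbour Oas3 (ENSMUSG00000032661, chromosome 5, 120753098 to 120777661), 3244 bases away, at 46, 26.9 and 37.4. Mouse 4 was highest and mouse 5 lowest for both, a 1.67-fold and 1.71-fold range. Oas1a, whose transcript is partly shared with Oas1g, stood at 36.7, 27.2 and 36.6 CPM, Oasl1 at 15.9, 10.3 and 16 and Oasl2 at 231, 166 and 236. For these 3 genes mice 4 and 6 were nearly equal and mouse 5 lay below both. The median log2 ratio of the 5 members was -0.60 for mouse 5 to mouse 4, the lowest of the 11 role groups. Among the detected Oas1 paralogs outside the list, this ratio was -0.23 for Oas1b, -0.27 for Oas1g and 0.02 for Oas1c. Oas1c was lowest in mouse 4 (8.29, 8.41 and 10.9 CPM). Within each lung the neighbouring genes kept their proportion, Oas2 to Oas3 at 2.45, 2.5 and 2.66 and Oasl2 to Oasl1 at 5.95, 6.57 and 6.03 per kilobase.

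Among the sensors of viral RNA, Ddx58, which encodes RIG-I, stood at 83, 75.1 and 86.5 CPM, Ifih1, which encodes MDA5, at 46.8, 43.8 and 41, and Dhx58, which encodes their regulator LGP2, at 31.5, 23.2 and 32.1. Eif2ak2, which encodes the translation-blocking kinase PKR, stood at 37.1, 37.1 and 45.4 CPM. Ifih1 was the only one of the 4 that was lowest in mouse 6. Eif2ak2 was equal in mice 4 and 5 and higher in mouse 6, and Dhx58 was low in mouse 5 alone.

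The Mx genes encode dynamin-like GTPases that trap viral components in the nucleus or cytoplasm, and in C57BL/6 mice Mx1 is known to lack coding exons and to make no active protein. Mx1 transcripts stood at 25.3, 17.1 and 27 CPM and Mx2 at 6.04, 7.0 and 10.4. The pair did not vary together, since Mx1 was lowest in mouse 5 and Mx2 in mouse 4. Their ratio per kilobase was 4.0, 2.34 and 2.48, the widest shift between lungs among the pairs of members compared in this way. Mx2 had the lowest counts of all members and the widest fold range (1.72).

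Rsad2, which encodes the radical enzyme viperin, and Cmpk2, which encodes a mitochondrial nucleotide kinase that supplies its substrate, face away from each other on chromosome 12 with starts 12752 bases apart. Rsad2 stood at 40.7, 35.6 and 40.2 CPM and Cmpk2 at 37.8, 39.7 and 37.2. Both were among the steadiest members, and per kilobase their ratio was 1.03, 0.861 and 1.04. Cmpk2 was highest in mouse 5 and Rsad2 lowest there.

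The membrane proteins led all members per kilobase. Ifitm3 (ENSMUSG00000025492, chromosome 7, 141009586 to 141010770), which blocks the fusion of viruses with endosomes, stood at 414, 389 and 432 CPM, and Bst2 (ENSMUSG00000046718, chromosome 8, 71534255 to 71537456), the tetherin that holds budding virus at the cell surface, at 287, 249.9 and 353. Ifitm3 differed by 1.11-fold at most and Bst2 by 1.41-fold, and mouse 6 was highest for both. Of 23 listed paralogs of members found in the table, 17 were detected, led by Ifi27l2a (155 ± 24.5 CPM per kb), Ifitm2 (148 ± 7.6), Slfn2 (124 ± 20.9) and Ifitm1 (71.9 ± 14.7), and Oas1d, Oas1f and Oas1h had no count.

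The ADP-ribosyltransferase genes Parp9 and Parp14 and the ubiquitin ligase gene Dtx3l, whose protein pairs with PARP9, lie close together on chromosome 16. Parp14 stood at 217, 179 and 222 CPM, Parp9 at 120.3, 101 and 121 and Dtx3l at 92.5, 71.1 and 83.2. Each was lowest in mouse 5. Dtx3l and Parp9 lie head to head with starts 681 bases apart and share 458 exon bases on opposite strands, 8.0% of Dtx3l and 9.4% of Parp9. Per kilobase Parp14 kept to 0.946, 0.924 and 0.957 times Parp9 in the 3 lungs.

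Restriction and ubiquitin-linked genes were steady between lungs. Slfn5, a Schlafen family gene, stood at 192, 197 and 188 CPM, with a range of 1.04-fold, and it and Cmpk2 were the only 2 members highest in mouse 5. Samd9l stood at 125, 117 and 117 CPM, Trim30a, a tripartite motif gene, at 87.3, 81.1 and 93.1, and the pro-apoptotic Xaf1 at 56.9, 51.7 and 64.3. The widest range among the 4 was that of Xaf1 (1.24-fold).

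Of the other members, Lgals3bp, a secreted glycoprotein that binds galectins (ENSMUSG00000033880, chromosome 11, 118392751 to 118402092), stood at 632, 374 and 434 CPM, with mouse 4 far above the other lungs (1.69-fold over mouse 5). Ifi27, a mitochondrial membrane protein gene, stood at 141, 133 and 155 CPM and Ifi35 at 102, 101 and 116, where mice 4 and 5 were nearly equal. Epsti1 stood at 78, 57.2 and 78.2 CPM, equal in mice 4 and 6 and lower in mouse 5. Rtp4, a receptor transporter gene, stood at 65, 56.5 and 67.1 CPM and Ifi44 at 33.3, 30.1 and 33. All 6 genes were lowest in mouse 5.

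Across the list, mouse 5 had the lowest level for 31 of 37 members, where 36.8% of all genes kept were lowest in that mouse. The 31 include near ties. For Usp18, Ifit1, Eif2ak2 and Ifi35 the 95% interval for counting error of the ratio to mouse 4 covered 1. For Samd9l that of the ratio to mouse 6 did. Members were highest in mouse 6 for 25 genes (all genes 30.2%), in mouse 4 for 10 (33.4%) and in mouse 5 for 2 (36.4%). Mouse 4 exceeded mouse 5 at 32 members (all genes 50.5%) and mouse 6 exceeded mouse 5 at 34 (49.9%), while mouse 6 exceeded mouse 4 at 25 (50.3%). The median member log2 ratio was -0.17 for mouse 5 to mouse 4, 0.05 for mouse 6 to mouse 4 and 0.27 for mouse 6 to mouse 5, on the log2(CPM + 0.5) scale, where the medians of all genes lay within 0.003 of 0. These comparisons share libraries and each mouse is 1 library, so they describe 3 lungs and have no replicate check. Scaled to library totals alone, 28 members were lowest in mouse 5, and 26 when the counts of muscle, squamous and club cell markers were also left out of the totals, a choice made after seeing the data.

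The differences were modest. Only 6 members exceeded 1.5-fold between the highest and the lowest mouse, against 22.9% of all genes kept. The shares and medians of all genes given here are not matched for abundance, and the members were more abundant at the median. The 6 were Mx2 (1.72-fold), Oas3 (1.71), Lgals3bp (1.69), Oas2 (1.67), Mx1 (1.57) and Oasl1 (1.55). The count was 2 without mouse 4, 1 without mouse 5 and 4 without mouse 6. By direction, 4 members were more than 1.5-fold higher in mouse 4 than in mouse 5 (all genes 8.2%), 2 higher in mouse 6 than in mouse 5 (5.5%), 1 higher in mouse 6 than in mouse 4 (5.48%) and 0 lower (5.3%). The median range was 1.24-fold for members and for all genes kept alike, and the median coefficient of variation was 12.1% for members and 11.2% for all genes. Of 111 ratios of members between pairs of mice, 84 had a 95% interval for counting error that left out 1. Counting noise was thus smaller than most of these differences. The same share over all genes was not computed. The members had a higher median level than all genes kept, and higher counts give narrower intervals, so 84 is not a trait of the members.

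**Figure D3:**
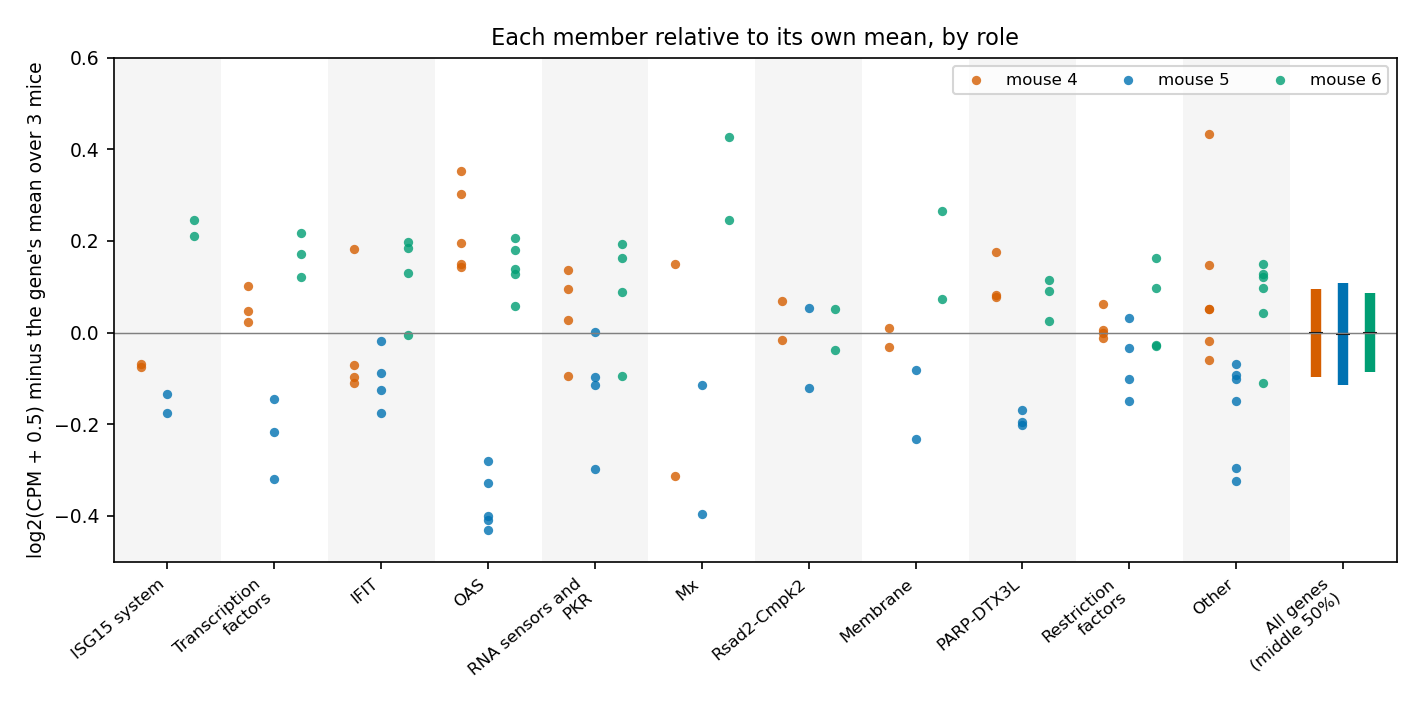
Log2(CPM + 0.5) of each member minus its own mean over the 3 mice, by role and mouse, with the middle 50% of all genes kept as bars and their medians as black ticks at the right. The blue points of mouse 5 lie below 0 for most members and reach lowest among the OAS genes, while the bars of all genes are centred on 0.

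Whether any member varied between mice by more than genes of like abundance was tested in edgeR with a quasi-likelihood F test of the residual dispersion against its trend. With Benjamini-Hochberg adjustment no member and no gene passed (0 of 17636 genes, 0%), and the smallest adjusted p of any gene was 0.806. At an unadjusted p under 0.05 there were 867 genes (4.92%), among them 2 members. These were Oas2 and Oas3 (edgeR adjusted p = 0.955 for each), both highest in mouse 4 and lowest in mouse 5. DESeq2 marked 102 genes and 0 members as dispersion outliers. Without the expression filter 629 genes passed in edgeR, Oas2 and Oas3 among them (adjusted p = 0.0319 and 0.0401), so the count of members called depends on the filter. Without mouse 4, 13 genes passed and no member. The residual dispersion used in this test lay above its trend with abundance for 25 of the 37 members, against 44.1% of all genes. Its median distance from that trend, on the log2 scale, was 0.92 for members and -0.29 for all genes. The separate edgeR estimate of the biological coefficient of variation had a median of 12.3% for members and 14.7% for all genes, not matched for abundance.

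Role groups moved by different amounts. For mouse 5 against mouse 4, the median log2 ratio was -0.60 for the 5 OAS genes, -0.28 for the 3 PARP and Dtx3l genes and -0.27 for the 3 transcription factors. It was -0.10 for the 4 restriction genes, -0.08 for Isg15 and Usp18, -0.06 for Rsad2 and Cmpk2 and -0.02 for the 4 IFIT genes. For mouse 6 against mouse 4 the highest group medians were those of the Mx genes (0.42), ISG15 pair (0.30) and IFIT genes (0.25). The Mx median lies midway between Mx1 (0.09) and Mx2 (0.74), which had the fewest counts of all members. The OAS median was -0.00, but the genes were split. Oas1a (-0.005), Oasl1 (0.01) and Oasl2 (0.03) were nearly level, and Oas2 (-0.18) and Oas3 (-0.295) were lower in mouse 6. Mouse 5 was thus lowest for all 5 OAS genes, and mouse 6 was highest for 3 of the 4 IFIT genes, Ifit2 being the exception, and the difference between these groups was not tested.

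Some immune cell marker lists were lowest in the same lung as the members. The 4 monocyte and macrophage markers summed to 2017, 1201 and 1537 CPM in mice 4, 5 and 6, the 4 T cell markers to 207, 144 and 228 and the 3 B cell markers to 197, 147 and 218, and each marker of these lists was lowest in mouse 5. The 4 plasmacytoid dendritic cell markers were also lowest there, with a sum of 69.5, 40.04 and 50.7 CPM, most of it Cox6a2. All 3 cardiac muscle markers were lowest in mouse 5 and highest in mouse 6, as many members were, with sums of 134, 63.1 and 195 CPM. Other immune lists did not have this order. None of the 3 NK cell markers was lowest in mouse 5 (sums of 44, 54.4 and 56.4 CPM), nor any of the 3 neutrophil markers (249, 217 and 164), and of the 3 alveolar macrophage markers Marco alone was (438, 484 and 494), while 2 of 3 plasma cell markers were (650.5, 501 and 504). Alveolar type 1 markers summed to 2289, 3194 and 2145 CPM and endothelial markers to 913, 1263 and 932, with every marker highest in mouse 5. Every alveolar type 2 marker was highest there too. The order of mice 4 and 6 differed between lists, with macrophage markers highest in mouse 4 and T cell markers in mouse 6. The part of cell and tissue content in the levels of the members was not tested.

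Genes best known as targets of interferon-gamma had a higher median level per kilobase than the members. All 7 listed genes, Gbp2, Cxcl9, Irf1, Igtp, Irgm1, Ciita and Ido1, were detected, and their median was 442, 314 and 478 CPM in mice 4, 5 and 6. Per kilobase, their median was 109 CPM per kb, against 18.7 for the 37 members. Ciita (10.1 CPM per kb) and Ido1 (15.4) stood below the median of the members, and the other genes of the list above it. Every one of the 7 was lowest in mouse 5, with a median log2 ratio of -0.53 to mouse 4, close to that of the OAS genes. Ifng itself stood at 9.73, 6.5 and 12.3 CPM, also lowest in mouse 5. Basal levels of these lists, as in an unchallenged lung, were not analysed here.

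**Figure D4:**
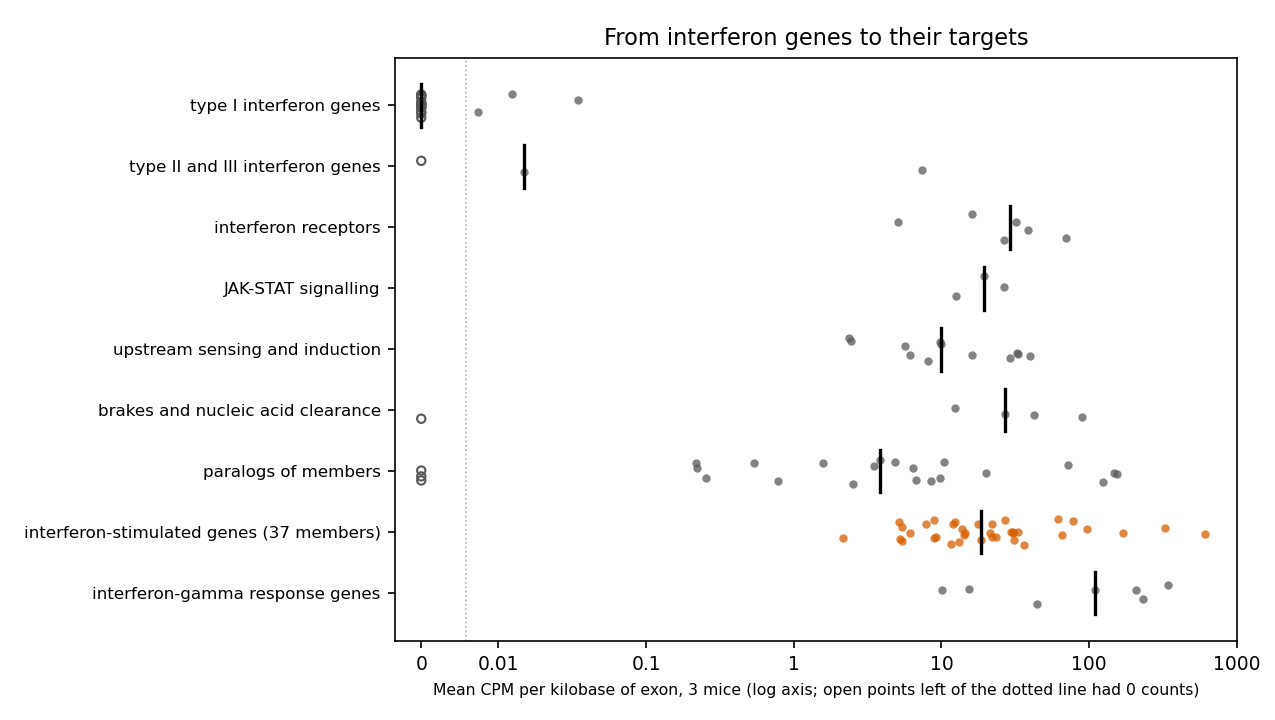
Mean CPM per kilobase over 3 mice for each gene of the pathway lists and the 37 members, on a log axis with genes at 0 counts as open points at the left and the median of each list as a black bar. The type I interferon genes lie at or near 0, the members are centred on 18.7 and the 7 interferon-gamma response genes on 109 CPM per kb.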

How the data were processed

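Per the labels' protocols, RNA of 3 mouse lungs was purified with Direct-zol MicroPrep columns, and Nugen Universal mRNA chemistry gave the libraries. STAR 2.5.2a, Trim Galore 0.6.2, bcl2fastq 2.17 and the build mm10 are named, per the submitters' processing notes. No source used here names the counting tool, its annotation or its strand setting. The authors deposited unnormalized whole counts for Ensembl genes, in 1 column per mouse, and by its label each library is a separate animal.

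Symbols, coordinates (1-based) and exon lengths came from GENCODE M21 on the same build, which matched 53237 of 53342 identifiers (99.8%). In the pathway lists Mb21d1 was matched as Cgas, and Samd9 had no match. An item of the pathway lists is not reported here. CPM used TMM scaling (factors near 1), and logs were log2(CPM + 0.5). Spread between mice was tested in edgeR 4.0.16 (R 4.3.3) on genes kept by filterByExpr, with an intercept-only quasi-likelihood fit, robust empirical Bayes, 3.88 prior degrees of freedom and Benjamini-Hochberg adjustment at 0.05. The test was tried on simulated data with shifts in a single mouse that were larger than the range of any member. It therefore does not show whether ranges as small as those of the members would be found. DESeq2 1.42.0 was an alternative. Levels and intervals were computed with scipy 1.17.1, pandas 2.3.3 and numpy 2.4.6 under Python 3.11.15. Counts are of reads and not of identified molecules, so 95% intervals and the floor of 3 counts cover counting error only. Promoter sequences are from RefSeq.

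The members and gene lists were chosen with earlier results of these data known. Every member is named, with up to 4 of the genes of each pathway list most abundant per kilobase, interferon genes with a count and markers by list; any other gene named was picked with its values in view. Scaling, filters, dispersion estimates, pseudocounts, lengths, the motif and the mice included were varied as alternatives.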

Additional observations from a re-analysis of the deposited data

How the results depend on the processing

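No paired analysis was possible because all 3 mice belong to 1 group. Of 249 alternative values, 243 stayed within the limits set for them. Among the 243 are all 185 alternative levels of single members, which have no direction to change. No median log2 ratio changed sign. The values outside their limits concern 3 counts. The number of members called by the spread test was 0, and 2 with no filter on low counts. The number of genes called was 0, 629 with no filter, 102 as DESeq2 dispersion outliers, and 0 to 13 when each mouse was left out, where 13 came without mouse 4. The number of members over 1.5-fold was 6, and 1 to 4 when each mouse was left out. The cause of these changes was not tested, except that leaving out a mouse leaves 2 libraries to form a range.

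The number of members lowest in mouse 5 was 31 with TMM or DESeq2 scaling, 28 with library totals and 26 with totals that leave out muscle, squamous and club cell markers, an alternative chosen after seeing the data. The number higher in mouse 6 than in mouse 4 was 25, 25, 30 and 30 in the same order. Values within the limits also moved. The median member log2 ratio of mouse 6 to mouse 4 was 0.05 with TMM and 0.09 with the last of these scalings. That of mouse 4 to mouse 5 was 0.17 and 0.10. With the longest transcript in place of all exons, 35 of 37 members stayed within 3 places of their rank. Among members Mx2 had the fewest counts, the type I interferon genes were near the limit of detection, and 3 mice limit all estimates of spread.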
